A study of Mus musculus with 240 samples.

Results

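Expression of 33 microglia genes was followed across 8 inbred mouse strains and 3 brain regions. The genes were taken by symbol from the deposited count table and matched by Ensembl identifier to the deposited log2 table. All 33 were found in both, among 55414 genes counted and 14785 genes that passed the count filter and were tested. All are known microglia genes. RNA-seq had been run on tissue punches of the central amygdala (CeA), the core of the nucleus accumbens (NAcc) and the prelimbic cortex (PrL) of 48 naive mice. The strains were founders of the Collaborative Cross: C57BL/6J (B6), PWK/PhJ (PWK), A/J (AJ), CAST/EiJ (CAST), NOD/ShiLtJ (NOD), 129S1/SvImJ (S129), WSB/EiJ (WSB) and NZO/HILtJ (NZO). The series text writes NOD as NOD/LtJ. Each strain had 3 females and 3 males. All were untreated, each strain is a single inbred genotype, and the series text gives their age as 8 weeks, while the study's methods give a later age. The study compared B6 and PWK, its higher ethanol preference founders, with the other 6 strains, whose average is called Low_Average. The NAcc library of B6 mouse 1 was left out, as by the authors, so that B6 had 5 libraries in NAcc and every other group had 6. Libraries held from about 14942800 to about 33951600 counts, with a median of about 24456900.

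Microglia are the resident macrophages of the brain. They survey the tissue with motile processes through purinergic and chemokine receptors, take up debris and synaptic material that carries complement, and depend on the receptor Csf1r for survival. Several of their surface receptors lack signalling domains of their own and pair with the ITAM adaptors Tyrobp and Fcer1g, and the transcription factors Spi1 (PU.1) and Sall1 maintain their identity. In bulk tissue, fewer cells of a type and less RNA per cell cannot be told apart.

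Reads of the 33 genes summed to a median of 818 CPM, counts scaled to a common library size, in CeA, 911 in NAcc and 773 in PrL. Per kilobase of annotated exon in CeA, the median level was highest for the lysosomal protease Ctss, at 44.7 CPM per kb. The complement subunits C1qa and C1qb followed at 35.3 and 27.5 CPM per kb, and Csf1r at 20.4 CPM per kb. The lowest were the integrin subunit Itgam at 1.15, the phosphatase Ptprc (CD45) at 0.833 and the complement receptor C3ar1 at 0.228 CPM per kb. Ptprc has 18.3 kb of annotated exon, and its median before this scaling was 15.3 CPM. Markers that would point to other immune cells were scarce: 16 blood leukocyte genes summed to a median of 0.777 CPM in CeA, 0.738 in NAcc and 1.56 in PrL, and none of them passed the filter. Genes of border-associated macrophages, 11 in number, summed to medians of 15.2, 15.3 and 28.5 CPM in the same order, with Stab1 the most abundant, and 3 of them were tested. Exons of Itgam overlapped another gene on the same strand over 68.7% of their length, and those of Csf1r overlapped a gene on the opposite strand over 15.1%, so the level of Itgam is uncertain.

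Genes that differed among the 8 strains were called by a limma-voom F test with sex and sequencing tray in the model and a Benjamini-Hochberg adjusted p (false discovery rate, FDR) under 0.05. In CeA 31 of the 33 genes passed, against 80.7% of all genes tested, in NAcc 30 against 75.9%, and in PrL 31 against 83.8%. Ptprc passed in no region, and the others that did not pass were the receptor Gpr34 in CeA, Itgb2 and the tetraspanin Cd53 in NAcc, and Sall1 in PrL. The shares of genes with any strain difference were therefore near or somewhat above the background. Over the 28 pairs of strains the distance was wider: 429 of 924 tests (46.4%) were called in CeA against 28.8% of all tests, 406 (43.9%) against 26.1% in NAcc, and 516 (55.8%) against 33.0% in PrL. The genes share mice and libraries, so these tests are not independent.

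The level shared by the 33 genes was summarised for each library as the mean of their log2 CPM, each gene centred within its region. In CeA the 6 B6 libraries had a mean of 0.49 ± 0.18 (SD, n = 6) on the log2 scale, ranging from 0.23 to 0.70, and the 6 WSB libraries a mean of -0.35 ± 0.11 (SD, n = 6). AJ, NOD and PWK had means of 0.12, 0.10 and 0.03, NZO and CAST of -0.03 and -0.08, and S129 of -0.28. B6 and WSB did not overlap, whereas the neighbouring strains between them did. In NAcc NOD was highest at 0.32 ± 0.14 (SD, n = 6), with B6 at 0.29 ± 0.21 (SD, n = 5), AJ at 0.09 and WSB lowest at -0.26. This order of NOD and B6 rested on 1 library of each that lay apart from its group, and without the 4 such libraries B6 was highest at 0.38, NOD followed at 0.26 and AJ was at -0.04. In PrL B6 was again highest at 0.32 ± 0.13 (SD, n = 6), followed by AJ at 0.18 and NOD at 0.17, and CAST at -0.22 and WSB at -0.33 ± 0.07 (SD, n = 6) were lowest. WSB was thus the lowest strain by this mean in all 3 regions, but CAST was lower in PrL when the median over genes was used in place of the mean.

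**Figure D1:**
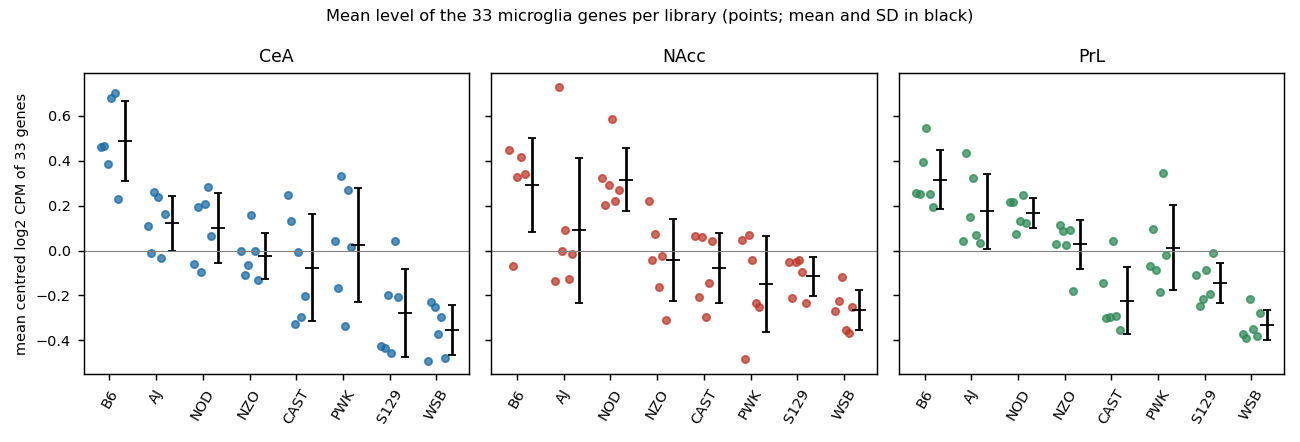
Mean centred log2 CPM of the 33 microglia genes in each library (points) by strain, in 3 panels for CeA, NAcc and PrL, with the strain mean and SD in black. B6 lies highest in CeA and PrL, NOD and B6 lie highest in NAcc, and WSB lies lowest in each panel; 1 AJ library in NAcc stands at 0.73, far above the other 5.

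In B6 microglia genes were broadly higher than in the 6 low preference strains. In CeA 23 of 33 were higher and 0 lower by limma-voom, while 22.3% of all genes were higher and 18.7% lower, and the median log2 difference of the genes was 0.55. In NAcc 15 were higher and 3 lower (17.2% and 14.9% of all genes), with a median of 0.16, and in PrL 21 were higher and 1 lower (18.0% and 19.3% of all genes), with a median of 0.28. The same 15 genes were higher in all 3 regions, against 6.01% of all genes. Markers of other cells moved with them in CeA of B6, where all 5 oligodendrocyte genes tested were higher (median 1.46), as were all 3 border-associated macrophage genes (median 0.94), 6 of 8 endothelial and mural genes (median 0.34) and 4 of 6 astrocyte genes (median 0.39). In NAcc 5 of 8 endothelial and mural genes (median 0.24) and 2 of 5 erythrocyte genes (median 0.61) were higher in B6, while 2 of 6 astrocyte genes (median -0.05) and 2 of 4 oligodendrocyte precursor genes (median -0.28) were lower. In PrL 2 of 5 oligodendrocyte genes were higher (median 0.65). With the mean of the oligodendrocyte genes as a further term, added after this was seen, 14 microglia genes were higher in B6 in CeA (median 0.23), against 11.2% of all genes in the same fit. In NAcc 14 were then higher and 6 lower (25.2% and 24.0% of all genes), and in PrL 20 were higher (16.5%). The part of the other cell markers in the result was not tested. Within sequencing trays, the median difference was 0.50, 0.41 and 0.51 in CeA, 0.05, 0.21 and 0.34 in NAcc, and 0.26, 0.37 and 0.32 in PrL. The NAcc counts depended on single libraries. When each B6 NAcc library was left out in turn, 10 to 17 genes were higher and 1 to 4 lower, with medians from 0.118 to 0.293. Without B6 replicate 25, whose mean lay at -0.07 while the other 4 lay between 0.33 and 0.45, 17 genes were higher and 1 lower (17.8% and 15.4% of all genes), with a median of 0.29.

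Some of the 15 encode parts of complement or Fc receptors, and neither group was tested as such. C1q, the recognition molecule of the classical complement pathway, is built from 3 chains, and all were higher: C1qa by 0.68, 0.34 and 0.48, C1qb by 1.07, 0.72 and 0.76, and C1qc by 1.16, 0.90 and 0.98 on the log2 scale in CeA, NAcc and PrL. C3ar1, the receptor for the complement fragment C3a, was higher by 1.56, 1.23 and 0.80, and Itgam, the alpha chain of complement receptor 3, by 0.69, 0.34 and 0.47. Its partner chain Itgb2 was called in CeA (0.59) and PrL (0.39), and the NAcc difference was 0.21 (adjusted p = 0.18). Among Fc receptor genes, Fcgr3 differed by 1.01, 0.83 and 0.69 and its gamma chain Fcer1g by 1.04, 0.76 and 0.71. The adaptor Tyrobp differed by 0.69, 0.33 and 0.48, and the lipid-sensing receptor Trem2 that signals through it by 0.58, 0.38 and 0.22. The pore-forming protein Mpeg1 was 2.75-fold higher in CeA, 2.01-fold in NAcc and 2.02-fold in PrL. Ly86, Siglech, Cd68, Olfml3 and Fcrls complete the 15.

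The levels behind these differences can be read in CeA. C1qb held 43.6, 64.3 and 83.8 CPM in B6 (lowest, median and highest of 6 libraries), and medians of the other strains were between 26.8 CPM in AJ and 42.8 CPM in PWK. Fcgr3 held 11.7, 15.5 and 18.1 CPM in B6, where the highest library of any other strain was at 11.6 CPM in PWK, so B6 did not overlap the rest. Fcer1g held 7.21, 10.2 and 12.4 CPM in B6 and 5.97, 7.23 and 8.68 CPM in CAST, which overlapped, while no library of the other 6 strains exceeded 6.39 CPM. For Tyrobp, B6 libraries at 13.2, 17.8 and 20.8 CPM overlapped those of PWK at 15.9, 21.1 and 28.3 CPM.

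Of the 33 genes, 8 passed the test in no region in B6: Csf1r, the fractalkine receptor Cx3cr1, the purinergic receptor P2ry13, Tmem119, Aif1 (Iba1), Itgb5, Gpr34 and Ptprc. Their values ranged with the region, for instance 0.18, -0.03 and 0.06 for Csf1r and 0.14, -0.10 and 0.02 for Tmem119. P2ry12, the ADP receptor that guides microglial processes, was lower in B6 in NAcc (-0.33) and PrL (-0.30), and its CeA difference was -0.12 (adjusted p = 0.35). Sall1 was higher in CeA (0.28) and lower in NAcc (-0.33), but its CeA difference was -0.089 with the oligodendrocyte term (adjusted p = 0.395), and Cyth4, an exchange factor for ARF GTPases, was lower in NAcc (-0.34).

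PWK, the other strain of higher preference, had genes called in both directions, and most of these counts were near those of all genes. Of the 33 genes 15 were higher and 5 lower in CeA (20.1% and 19.1% of all genes), 5 higher and 8 lower in NAcc (20.0% and 18.8%), and 14 higher and 8 lower in PrL (23.9% and 23.2%). The counts of higher genes in CeA and PrL were above the share of all genes, and the lower counts and both NAcc counts were close to it. Markers of other cells differed in PWK as well, and their part in the result was not tested. In CeA 4 of 6 astrocyte genes (median 0.28) and 5 of 8 endothelial and mural genes (median 0.30) were higher. In NAcc 3 of 6 astrocyte genes were higher (median 0.22), and 3 of 5 oligodendrocyte genes (median -0.58) and 2 of 3 border-associated macrophage genes (median -0.62) were lower. In PrL 4 of 8 endothelial and mural genes were higher and 1 lower (median 0.17). With the oligodendrocyte term, 14 microglia genes were higher and 7 lower in PWK in NAcc (29.4% and 26.5% of all genes). The median differences were 0.24, -0.01 and 0.12, and within trays they took both signs in NAcc (-0.15, 0.09 and -0.02) and PrL (-0.03, 0.31 and 0.14) but not in CeA (0.31, 0.18 and 0.20). Higher in all 3 regions (5 genes, against 11.1% of all genes) were C1qa, Tyrobp, Ctss, Mpeg1 and Unc93b1, the chaperone that carries nucleic acid sensing Toll-like receptors to endosomes. Lower in all 3 (5 genes, against 11.2%) were Cx3cr1, Ly86, Olfml3, C3ar1 and Fcrls, an Fc receptor-like scavenger gene. Ctss differed by 0.84, 0.47 and 0.64, Tyrobp by 1.03, 0.67 and 0.82, and Cx3cr1 by -0.29, -0.60 and -0.32 in CeA, NAcc and PrL. Because both comparisons share the low preference samples, B6 was also set directly against PWK by limma-voom for these 10 genes. They had been chosen for their PWK calls in the same data, so the signs of this contrast were partly set by that choice. B6 exceeded PWK in all 3 regions for Fcrls (4.17, 4.84 and 3.75), Olfml3 (2.62, 2.55 and 2.56), C3ar1 (2.27, 2.32 and 1.38), Ly86 (1.23, 1.10 and 1.01) and Cx3cr1 (0.50, 0.65 and 0.42). It was called below PWK in all 3 for Unc93b1 (-1.29, -1.34 and -1.31), and in PrL for Tyrobp (-0.34) and Ctss (-0.40). Mpeg1 (0.21, 0.17 and 0.14) and C1qa (-0.06, -0.03 and -0.08) were called in no region. The calls for Tyrobp and Ctss do not show a difference limited to PrL. Against Low_Average, Tyrobp was at 0.69 in B6 and 1.03 in PWK in CeA, and at 0.33 and 0.67 in NAcc. For Ctss these values were 0.67 and 0.84 in CeA, and 0.03 and 0.47 in NAcc.

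Every strain was then set against the mean of the other 7. WSB had 19 lower and 2 higher genes in CeA (14.2% and 15.3% of all genes), 11 and 2 in NAcc (12.9% and 12.7%), and 22 and 2 in PrL (17.0% and 19.0%). Its medians were -0.32, -0.19 and -0.23, with negative values within each tray in every region. With the oligodendrocyte term, 12 genes were lower in WSB in CeA in place of 19 (10.6% of all genes in the same fit). The mean centred log2 CPM of the oligodendrocyte genes was itself lowest in WSB in CeA, at -0.85. It was -0.01 in NAcc and 0.16 in PrL of WSB. The 11 genes lower in WSB in all 3 regions (6.64% of all genes) were C1qc, Trem2, P2ry13, Cd68, Fcgr3, Laptm5, Siglech, C3ar1, Unc93b1, Cyth4 and Fcrls, while Olfml3 was higher in all 3 (6.55%).

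CAST had genes called in both directions. In CeA 10 were lower and 5 higher (17.9% and 19.6% of all genes), in NAcc 13 and 4 (18.5% and 19.1%), and in PrL 22 and 5 (23.3% and 24.6%). The CeA median of -0.16 was 0.14 within tray 2, and the NAcc median of -0.20 was 0.00453 with the oligodendrocyte term, where 6 genes were lower and 7 higher (18.9% and 21.0% of all genes). The oligodendrocyte mean was lowest in CAST in NAcc, at -0.57, and was 0.12 in CeA and -0.03 in PrL of CAST. Lower in all 3 regions were 9 genes (11.0% of all genes), Mpeg1, Trem2, Ctss and Itgam among them, and higher in all 3 were Itgb5, Fcer1g, Olfml3 and Fcrls (11.1%).

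S129 had 16 lower and 0 higher genes in CeA (9.85% and 10.3% of all genes), 7 and 4 in NAcc (7.89% and 9.05%), and 14 and 4 in PrL (12.4% and 15.4%). The medians were -0.25, -0.06 and -0.13, and the CeA median was 0.01 within tray 1. With the oligodendrocyte term 13 genes were lower in NAcc (10.5% of all genes). The 7 genes lower in S129 in all 3 regions (4.53% of all genes) were C1qa, Aif1, Itgam, Ly86, Olfml3, Mpeg1 and Fcrls.

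NZO had medians of -0.04, -0.06 and 0.02, with single genes called in both directions. In CeA 3 were higher and 4 lower (11.1% and 8.28% of all genes), in NAcc 3 and 4 (10.0% and 8.22%), and in PrL 3 and 3 (16.2% and 13.6%). With the oligodendrocyte term 5 were higher in NAcc (14.1%). Itgam, Selplg and Cyth4 were higher in all 3 regions (5.58% of all genes), and C1qa and Fcrls lower in all 3 (4.15%).

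NOD lay on the higher side in NAcc and PrL. It had 22 higher and 0 lower genes in NAcc (13.7% and 9.68% of all genes), with a median of 0.31, but 8 higher with the oligodendrocyte term (10.3% of all genes in the same fit), with a median of 0.08. In PrL 16 were higher and 1 lower (15.1% and 12.3%), with a median of 0.20. In CeA 5 were higher and 1 lower (14.2% and 13.2%), with a median of 0.06, and 0.10, 0.04 and 0.01 within the 3 trays, and 9 were higher with the oligodendrocyte term (14.0%). C1qa, Trem2, Cx3cr1, Ly86 and C3ar1 were higher in NOD in all 3 regions (5.51% of all genes). The oligodendrocyte mean was highest in NOD in NAcc, at 0.60, and was -0.31 in CeA and 0.11 in PrL of NOD.

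AJ had 13 higher and 5 lower genes in CeA (18.0% and 16.1% of all genes), 11 and 7 in NAcc (14.4% and 11.4%), and 16 and 3 in PrL (15.3% and 13.5%), with medians of 0.23, 0.19 and 0.21. The purinergic receptors P2ry12 and P2ry13, Csf1r and Cx3cr1 were among the 10 genes higher in AJ in all 3 regions (6.61% of all genes), whereas C1qb, the selectin ligand Selplg and Olfml3 were lower in all 3 (5.41%). The median of AJ in NAcc was 0.36, 0.07 and 0.05 within the 3 trays. With the 4 libraries that lay apart from their group left out together, 1 each of AJ, B6 and NOD in NAcc and 1 of NZO in PrL, 8 genes were higher and 11 lower in AJ in NAcc (15.4% and 13.3% of all genes), and the median was 0.04.

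**Figure D2:**
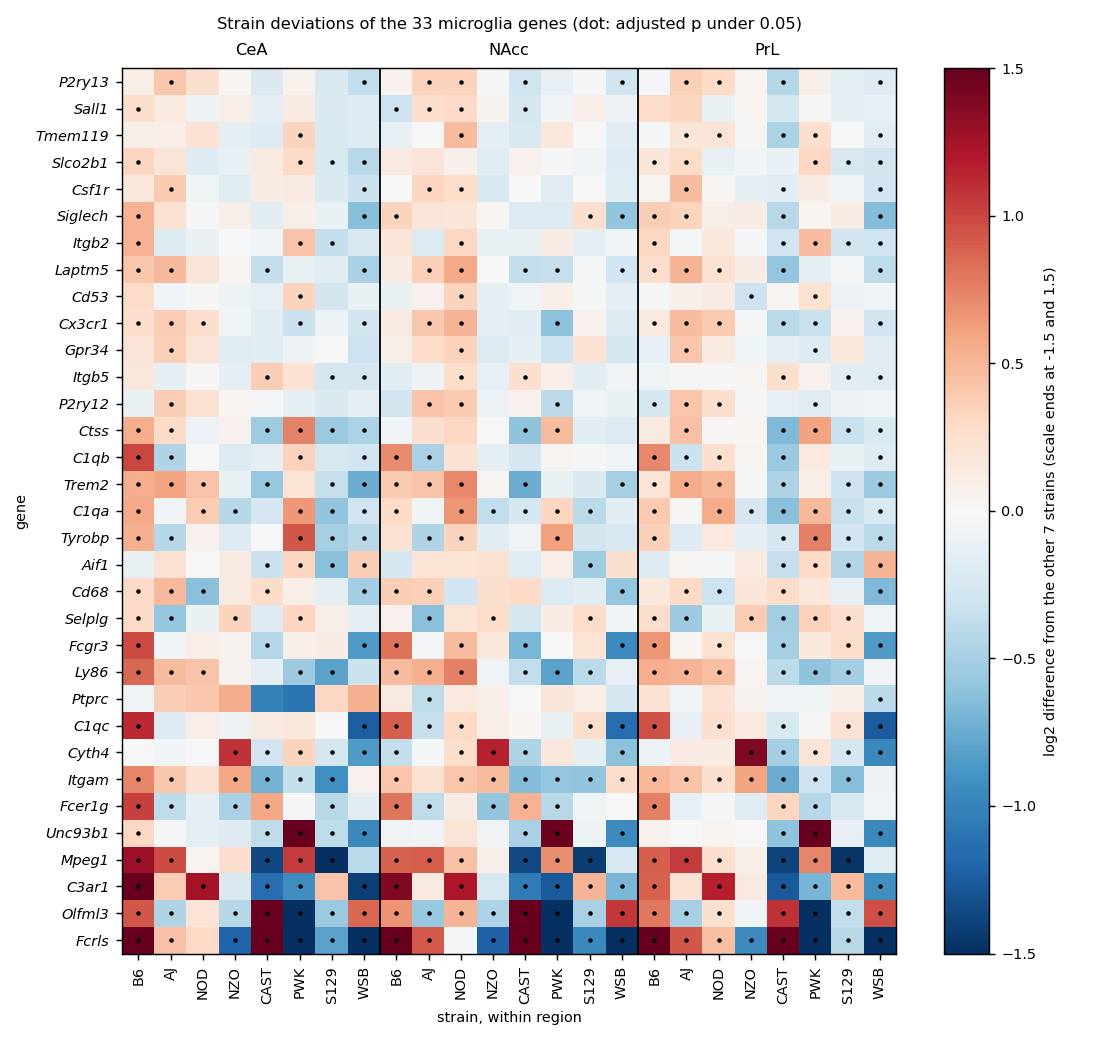
Log2 difference of each strain from the mean of the other 7 (colour) for the 33 microglia genes (rows) in the 3 regions, with a dot where the adjusted p was under 0.05. Columns of B6 and WSB show many genes of the same sign, while rows such as Fcrls, Olfml3, Unc93b1 and Cyth4 show strong colours in single strains that recur in all regions.

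Some genes differed from the rest of the set in particular strains. In the study a gene that differed in the same direction from each of the other 7 strains is a unique DEG of that strain. There were 14 such cases among the 33 genes in CeA (5.30% of 264 gene and strain pairs, against 2.59% over all genes), 10 in NAcc (3.79% against 2.37%) and 18 in PrL (6.82% against 3.66%). B6 was highest for C1qb, C1qc and Fcgr3 in all 3 regions and for Fcer1g in CeA and PrL, NZO was highest for Cyth4 and PWK for Unc93b1 in all 3 regions. PWK was lowest for Olfml3 and WSB for C1qc in all 3 regions. S129 and NOD had none. The 8 genes with the largest strain effect beyond the median of the set are described next, the strain differences in each case being against the mean of the other 7.

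Fcrls varied most. In CeA it was at 29.8, 39.2 and 48.1 CPM in CAST (lowest, median and highest of 6 libraries) and at 26.1, 30.6 and 35.9 CPM in B6. It was at 4.82, 8.36 and 11.1 CPM in AJ, and the medians of NOD, S129 and NZO were 7.48, 3.74 and 2.95 CPM. PWK had 1.43, 1.62 and 2.10 CPM and WSB 1.15, 1.60 and 2.15 CPM. No library of CAST or B6 overlapped any of the other 6 strains, and PWK and WSB shared the same low range. CAST was 7.98-fold above the other strains in CeA (log2 difference 3.00, SE 0.11, adjusted p = 1.79e-24), 10.1-fold in NAcc and 4.93-fold in PrL. The medians of CAST and B6 were 43.9 and 32.7 CPM in NAcc, and 29.0 and 30.6 CPM in PrL.

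Olfml3, which encodes a secreted olfactomedin-like protein, was lowest in PWK. PWK libraries held 3.14, 4.11 and 6.39 CPM in CeA, whereas CAST held 29.1, 37.5 and 46.8 CPM, B6 21.6, 28.3 and 32.4 CPM and WSB 22.0, 26.5 and 29.3 CPM. The other 4 strains ranged between 8.70 and 22.7 CPM, so that no PWK library overlapped any other strain. The PWK difference was -2.06 on the log2 scale in CeA (SE 0.15, adjusted p = 1.08e-14), -2.24 in NAcc and -2.14 in PrL. CAST was 2.80-fold, 2.86-fold and 2.12-fold above the other strains in CeA, NAcc and PrL.

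Unc93b1 was set apart in PWK and WSB. PWK had 32.5, 49.0 and 59.3 CPM in CeA and WSB 6.46, 8.78 and 11.2 CPM, and the medians of the other 6 strains lay between 12.1 and 18.3 CPM. PWK overlapped no other strain. Its level was 3.44-fold, 2.78-fold and 2.96-fold that of the other strains in CeA, NAcc and PrL (adjusted p = 4.27e-19 in CeA), and that of WSB was 0.510-fold, 0.515-fold and 0.513-fold.

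Mpeg1 varied over a graded range of strains. Its CeA libraries held 36.3, 44.0 and 51.9 CPM in B6 and 29.2, 36.4 and 43.3 CPM in AJ, and the PWK median was 39.1 CPM. The medians of NZO, NOD and WSB were 21.9, 20.0 and 15.6 CPM, with NZO overlapping AJ and B6, NOD overlapping PWK, and WSB overlapping CAST. S129 held 5.57, 6.25 and 9.98 CPM and CAST 4.68, 9.31 and 18.4 CPM. S129 and CAST overlapped each other but not B6, AJ or PWK. The difference of S129 was -1.83 in CeA (SE 0.21, adjusted p = 2.68e-09), -1.42 in NAcc and -1.46 in PrL, and that of CAST was -1.36, -1.35 and -1.39.

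Cyth4 was high in NZO, at 27.7, 31.9 and 37.3 CPM in CeA, and low in WSB, at 8.18, 10.1 and 10.6 CPM. The remaining 6 strains fell between 10.7 and 25.3 CPM, without overlap with NZO. NZO was 2.13-fold, 2.22-fold and 2.62-fold above the other strains in CeA, NAcc and PrL (adjusted p = 1.10e-15 in CeA).

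C3ar1 had the lowest median CPM of the 33 genes in each region. It reached 1.52, 2.82 and 4.31 CPM in CeA of B6 and 1.49, 2.15 and 2.99 CPM in NOD, but 0.171, 0.406 and 0.957 CPM in WSB. B6 and NOD overlapped each other and did not overlap WSB. The B6 difference was 1.66 in CeA (SE 0.21, adjusted p = 1.87e-08), 1.39 in NAcc and 0.88 in PrL, and the NOD difference was 1.24, 1.22 and 1.17.

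C1qc and Selplg had lower extremes. C1qc held 10.8, 12.1 and 14.7 CPM in CeA of WSB and 39.8, 50.7 and 71.1 CPM in B6, and all libraries of the other 6 strains lay between 20.0 and 36.4 CPM, so the 3 sets did not overlap. WSB was at 0.424-fold, 0.453-fold and 0.420-fold of the other strains in CeA, NAcc and PrL (adjusted p = 2.33e-10 in CeA). Selplg held 19.7, 20.9 and 25.5 CPM in CeA of AJ, where the medians of the other strains were between 28.0 and 37.7 CPM and the ranges of CAST, WSB and NOD overlapped with AJ. AJ differed by -0.59, -0.63 and -0.55 on the log2 scale (adjusted p = 7.08e-06 in CeA). These 24 differences, 1 strain of each of the 8 genes in 3 regions, stayed past the threshold with the same sign in all 325 alternative results from other settings or libraries. The genes had been picked for large differences called in all 3 regions of these data, so this is no independent support. No setting changed the alignment.

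**Figure D3:**
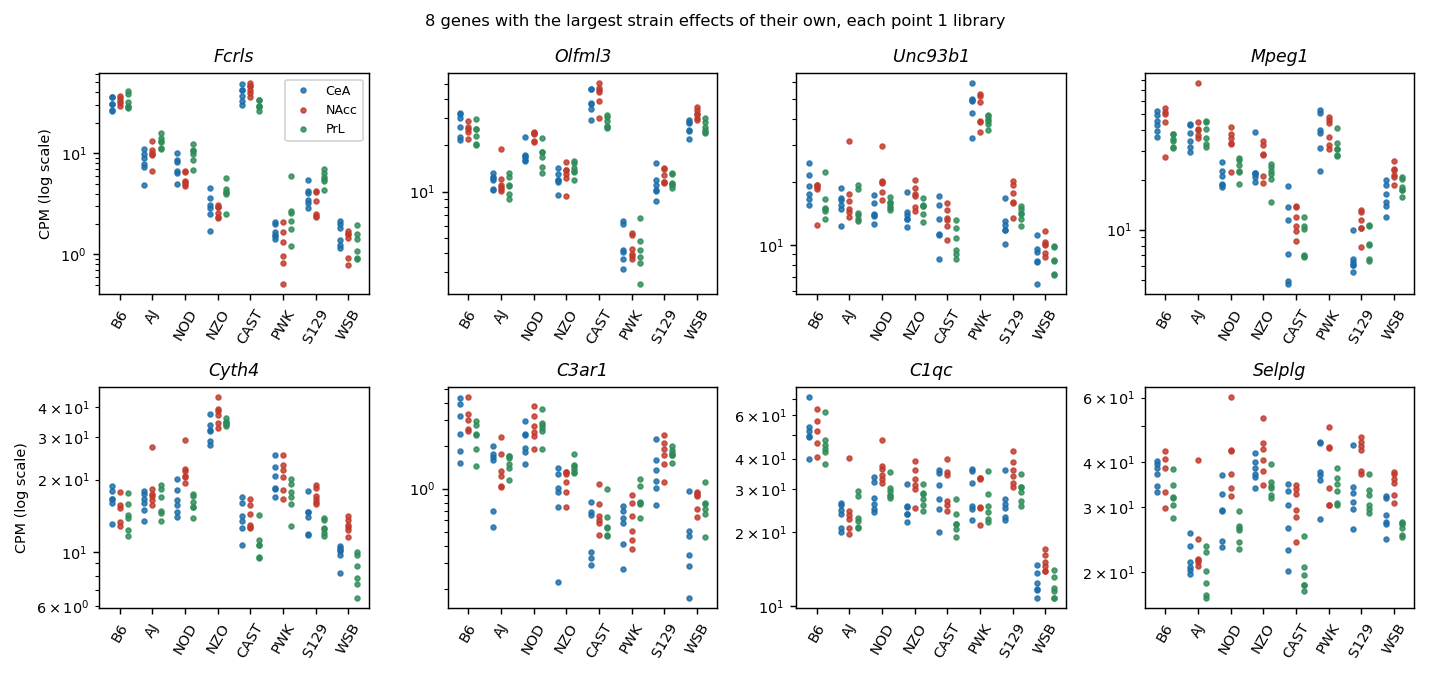
CPM on a log axis of the 8 genes with the largest strain effects beyond the set, by strain, each point 1 library and each colour 1 region. Fcrls is above 26 CPM in every CAST and B6 library and below 16 CPM in all others, and the low Olfml3 and high Unc93b1 of PWK recur in the 3 regions.

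The genes that stayed closest to the median of the set were P2ry13, Sall1, Tmem119 and Csf1r. P2ry13 held 16.3, 21.5 and 24.0 CPM in CeA of AJ and 11.0, 12.9 and 14.4 CPM in WSB, and these did not overlap. Its AJ difference was 0.41, 0.35 and 0.35 and its WSB difference -0.37, -0.30 and -0.20 in CeA, NAcc and PrL. Csf1r held 134.9, 159 and 177 CPM in CeA of AJ and 93.8, 98.8 and 111 CPM in WSB, again without overlap. Medians of Tmem119 in CeA ranged from 22.9 CPM in CAST to 31.3 CPM in PWK, and those of Sall1 from 24.1 CPM in WSB to 32.1 CPM in PWK, with overlapping ranges. In PrL, the highest libraries of B6 and AJ held 87.0 and 74.7 CPM of Sall1, while the medians of these strains were 22.8 and 30.2 CPM.

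The remaining genes varied in how many strains set them apart. In the number of strain pairs called of 28, Fcrls led with 25 in CeA, 26 in NAcc and 26 in PrL. Olfml3 followed with 24, 24 and 23, level with Mpeg1 in PrL, whereas Cd53 had 2, 3 and 4 and Ptprc 0, 1 and 2. The receptor Trem2 was lower in CAST (-0.56, -0.75 and -0.46) and WSB (-0.75, -0.50 and -0.54) and higher in AJ (0.60, 0.43 and 0.56) in CeA, NAcc and PrL. Itgam was lower in S129 (-0.92, -0.60 and -0.64) and CAST (-0.71, -0.65 and -0.74) and higher in NZO (0.58, 0.47 and 0.59), subject to the overlap given above. Aif1, an actin-binding protein of macrophages, was lower in S129 (-0.63, -0.53 and -0.44) and was higher in WSB in CeA (0.37) and PrL (0.51), against the direction of most genes in WSB. Cd68 was lower in WSB (-0.51, -0.58 and -0.66) and in NOD in CeA (-0.63) and PrL (-0.31), where Trem2 and Ly86 were higher. Siglech, a sialic acid receptor, was lower in WSB (-0.64, -0.59 and -0.65), and the lysosomal protein Laptm5 was lower there (-0.49, -0.29 and -0.39) and higher in AJ (0.49, 0.36 and 0.51). Itgb5 was higher in CAST (0.37, 0.24 and 0.26). Slco2b1 was higher in PWK in CeA (0.28) and PrL (0.32), and Gpr34 was higher in AJ in the same regions (0.35 and 0.41). Cx3cr1 held 71.5, 82.6 and 97.3 CPM in CeA of AJ and 40.4, 55.0 and 69.0 CPM in PWK, which did not overlap.

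The promoters of 4 genes are shown because a pair of them held the motif below (C1qb, P2ry13) and a pair did not (Olfml3, Cyth4). P2ry13 stayed close to the median of the set, while the other 3 genes had strain effects of their own in B6, PWK or NZO. Each sequence is the 250 bases before the transcription start in RefSeq on GRCm38.p6, read 5′ to 3′ on the strand of the gene. Capitals mark GAGGAA, the core of elements bound by Spi1, searched on both strands. The windows are chr4:136886201-136886450 (minus strand) for C1qb, chr3:59210883-59211132 (minus strand) for P2ry13, chr3:103738002-103738251 (minus strand) for Olfml3 and chr15:78596797-78597046 (plus strand) for Cyth4.
C1qb: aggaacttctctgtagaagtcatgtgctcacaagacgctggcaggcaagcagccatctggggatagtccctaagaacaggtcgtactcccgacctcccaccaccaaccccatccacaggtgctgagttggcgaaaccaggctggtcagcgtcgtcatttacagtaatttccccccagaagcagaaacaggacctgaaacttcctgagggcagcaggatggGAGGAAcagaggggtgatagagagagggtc
P2ry13: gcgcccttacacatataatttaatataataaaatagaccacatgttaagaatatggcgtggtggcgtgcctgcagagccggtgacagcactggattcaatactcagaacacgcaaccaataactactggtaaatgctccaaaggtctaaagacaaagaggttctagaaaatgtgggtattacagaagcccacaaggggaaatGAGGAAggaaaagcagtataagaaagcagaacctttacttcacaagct
Olfml3: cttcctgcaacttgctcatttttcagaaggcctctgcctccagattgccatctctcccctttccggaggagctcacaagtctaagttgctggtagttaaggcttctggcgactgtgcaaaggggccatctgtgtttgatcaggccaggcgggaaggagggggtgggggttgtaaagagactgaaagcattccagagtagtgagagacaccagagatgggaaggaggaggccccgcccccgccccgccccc
Cyth4: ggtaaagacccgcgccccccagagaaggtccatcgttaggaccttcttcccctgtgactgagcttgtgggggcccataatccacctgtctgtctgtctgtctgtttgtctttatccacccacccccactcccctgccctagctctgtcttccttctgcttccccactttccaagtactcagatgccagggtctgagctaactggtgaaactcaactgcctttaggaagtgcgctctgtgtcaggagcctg
The motif began 30 bases before the start in C1qb and 48 bases before it in P2ry13, and was not in the windows of Olfml3 and Cyth4. It was present in 15 of 31 windows of the 25 microglia genes that had a window (48.4%), and in 7639 of 32851 windows of all genes (23.3%). A match of 6 letters is a description of the sequence and not evidence of binding. The builds of these windows and of the counts differ, and no strain sequence was compared.

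Most of the genes were at higher levels in NAcc than in CeA or PrL. Against NAcc, 28 of 33 were lower and 1 was higher in CeA (35.9% and 33.2% of all genes), with a median log2 difference of -0.18. In PrL 28 were lower and 2 higher (44.1% and 38.4% of all genes), with a median of -0.26. The 5 oligodendrocyte genes tested were likewise all lower in CeA (median -0.87) and in PrL (median -1.73) than in NAcc. So were 5 of 8 endothelial and mural genes in CeA (median -0.15) and all 4 oligodendrocyte precursor genes in PrL (median -0.53), whereas 6 of the 8 endothelial and mural genes were higher in PrL (median 0.18). Of 4 neuron genes, 3 were higher in CeA (median 0.11) and 3 in PrL (median 0.39) than in NAcc, and all 5 erythrocyte genes were higher in PrL (median 1.10). Of 4 choroid plexus genes, 3 were higher in CeA (median 1.63) and 2 lower in PrL (median -0.56). With the mean of the oligodendrocyte genes as a further term, 7 microglia genes were lower and 2 higher in CeA than in NAcc (28.7% and 30.1% of all genes in the same fit) and 3 were lower in PrL than in NAcc (34.9%), in place of the 28 and 28 lower. In that fit 2 were higher and 7 lower in CeA than in PrL (34.6% and 33.3%). The fit used 1 slope of the oligodendrocyte term for all regions. Within strains, however, the oligodendrocyte and microglia means correlated at r = 0.57 in CeA, 0.62 in NAcc and -0.09 in PrL. Its counts for PrL therefore cannot tell how far the region differences go with oligodendrocyte genes. The lysosomal protein Cd68 was among the most different, by -0.36 in CeA and -0.83 in PrL (SE 0.05 each), and Ctss and Ly86, a partner of a Toll-like receptor homologue, differed by -0.48 and -0.45 in PrL. In CeA C3ar1 (-0.37) and Mpeg1 (-0.35) also stood out, while in PrL Fcrls (0.40) and Aif1 (0.12) were higher. Between CeA and PrL, 10 genes were higher and 3 lower in CeA (38.8% and 35.1% of all genes), with a median of 0.08. Cd68 (0.47) and Ly86 (0.19) were among the former, and C3ar1 (-0.40), Fcrls (-0.26) and Aif1 (-0.15) were the latter. The 3 regions came from the same mice. With mouse as a replicate block, every one of the 79 region and interaction calls on single genes was retained.

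**Figure D4:**
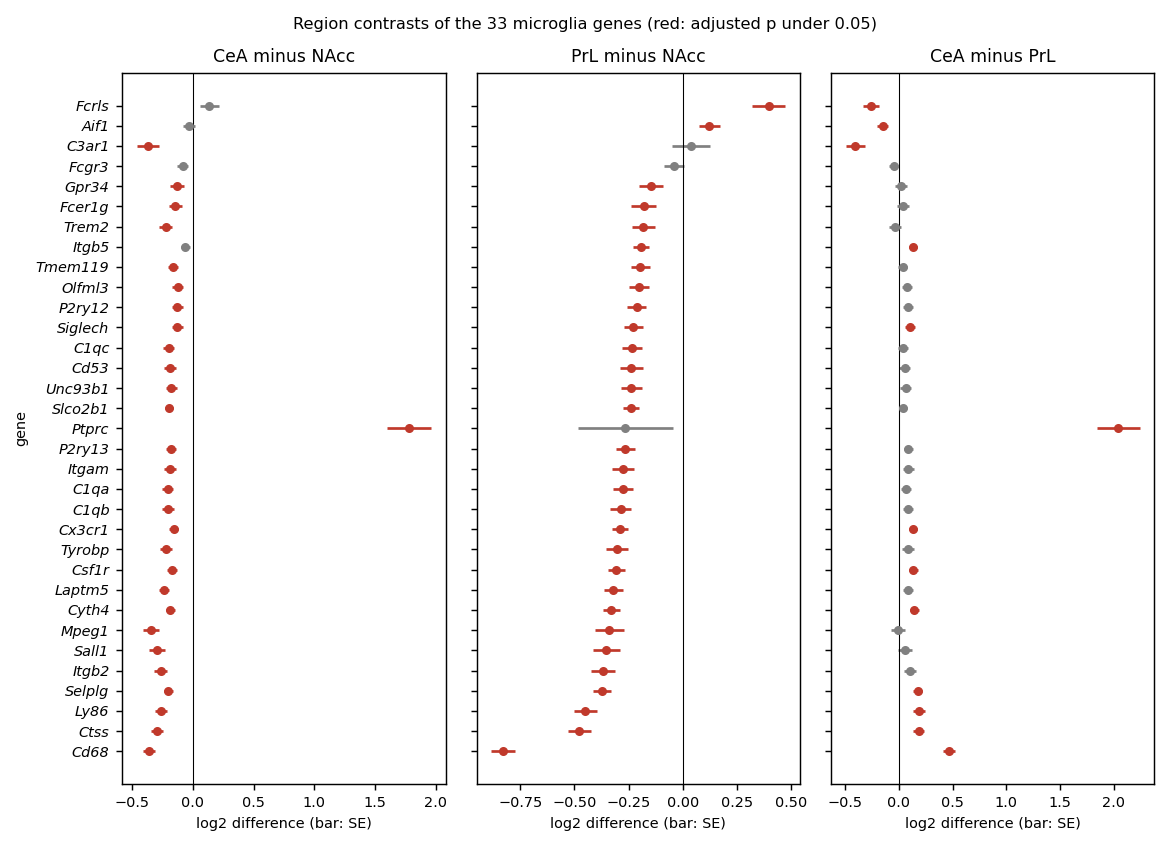
Log2 differences between regions with SE bars for the 33 microglia genes, in panels for CeA minus NAcc, PrL minus NAcc and CeA minus PrL, red where the adjusted p was under 0.05. Most genes lie left of 0 in the first and second panels, and Ptprc lies far to the right in both contrasts of CeA.

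Ptprc stood apart by its high level in CeA. Its level was 3.18, 15.3 and 37.6 CPM over the CeA libraries (lowest, median and highest of 48), 1.85, 3.79 and 5.57 CPM in NAcc and 1.79, 3.13 and 5.50 CPM in PrL. It was higher in CeA than in NAcc by 1.78 (SE 0.18, adjusted p = 1.45e-16) and than in PrL by 2.05 (SE 0.20), and its PrL difference from NAcc was -0.26 (adjusted p = 0.265). CeA libraries of a strain differed widely, as in AJ with 3.26, 23.2 and 37.6 CPM. Its within-strain deviations ran with those of the mean of the other 32 genes at r = -0.38 in CeA, 0.72 in NAcc and 0.68 in PrL. In CeA they ran with those of Etv1 at 0.87, Grm2 at 0.84, Dysf at 0.84, Tmem8b at 0.84 and Uhmk1 at 0.83 (48 libraries). These 5 genes were named after their values had been seen.

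The number of genes whose strain effect differed between regions depended on the method. An F test of the strain by region interaction passed for 5 of 33, against 33.6% of all genes: Ctss, Olfml3, Cyth4, Fcrls and the transporter Slco2b1. It was 6 by the edgeR quasi-likelihood test (37% of all genes), 8 by DESeq2 (46.1%), 9 with mouse as a replicate block (38.7%), 15 without the 4 libraries that lay apart (39.1%) and 27 with sample quality weights (70.5%). Among differences of single strain effects between pairs of regions, 7 of 792 were called (0.884%, against 1.87% of all). In B6, the Ctss difference from the other strains was larger in CeA than in NAcc by 0.60 (SE 0.16, adjusted p = 0.0248), and that of C3ar1 was larger in CeA than in PrL by 0.78. In CAST the excess of Fcrls was smaller in PrL than in NAcc by 1.04 and than in CeA by 0.69, and that of Olfml3 smaller by 0.43 and 0.41. The B6 excess of Fcrls was smaller in PrL than in NAcc by 0.50.

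No microglia gene differed between females and males at the threshold. The adjusted count was 0 in each region by limma-voom, edgeR and DESeq2, against 0.129% of all genes in CeA, 0.0812% in NAcc and 0.0947% in PrL by limma-voom. At an unadjusted p under 0.05, limma-voom gave 0 genes in CeA, 0 in NAcc and 5 in PrL (P2ry13, Laptm5, Selplg, Mpeg1 and Unc93b1), edgeR gave 1, 1 and 6, and DESeq2 gave 0, 1 and 6.

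Within a strain the genes rose and fell together from library to library. After strain, sex and tray were removed, the correlation of a gene with the mean of the other 32 had a median of 0.78 in CeA (48 libraries), 0.83 in NAcc (47 libraries) and 0.69 in PrL (48 libraries), and 27, 29 and 28 genes exceeded 0.5. Over all other genes tested, outside the 33, the median against the mean of the 33 was near 0 and 9.08%, 4.03% and 5.71% exceeded 0.5. These values share library and depth and are given as a description. Ctss, Csf1r and Cx3cr1 were the most typical in CeA, at 0.94, 0.93 and 0.92. Outside the set, genes whose deviations were among the most like its mean over the 3 regions were Rnase4 (mean r = 0.84), Vsir (0.81), Pld4 (0.75), Bin2 (0.75), Cmtm6 (0.74), Adgre1 (0.74), Vav1 (0.73), Sfxn5 (0.73) and Dock2 (0.72). In the same mouse, the deviations of the mean ran at r = 0.04 between CeA and NAcc, 0.09 between PrL and NAcc (47 mice each) and 0.32 between CeA and PrL (48 mice).

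Oligodendrocyte genes moved with the microglia genes in several of these results. Of 8 such genes 5 were tested, and the 8 summed to medians of 3389 CPM in CeA, 7201 in NAcc and 2019 in PrL, with Mbp the most abundant in B6 (median 3998 CPM in CeA). In CeA the B6 libraries summed to 6371, 9294 and 20168 CPM (lowest, median and highest). Their mean ran with that of the 33 genes within strains at r = 0.57 in CeA, 0.62 in NAcc and -0.09 in PrL. For the other lists, r with the mean of the 33 genes in CeA, NAcc and PrL was 0.32, 0.54 and 0.80 for astrocyte genes, 0.21, 0.53 and 0.72 for oligodendrocyte precursor genes, 0.57, 0.45 and 0.70 for endothelial and mural genes, and 0.29, 0.39 and 0.68 for border-associated macrophage genes. For neuron genes r was 0.15, 0.09 and -0.59, for erythrocyte genes 0.28, 0.25 and 0.29, and for choroid plexus genes -0.45, -0.45 and 0.14. These values, over 48, 47 and 48 libraries, share library and depth. The part of these cell types in the results was not tested beyond the fit with the oligodendrocyte term.

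**Figure D5:**
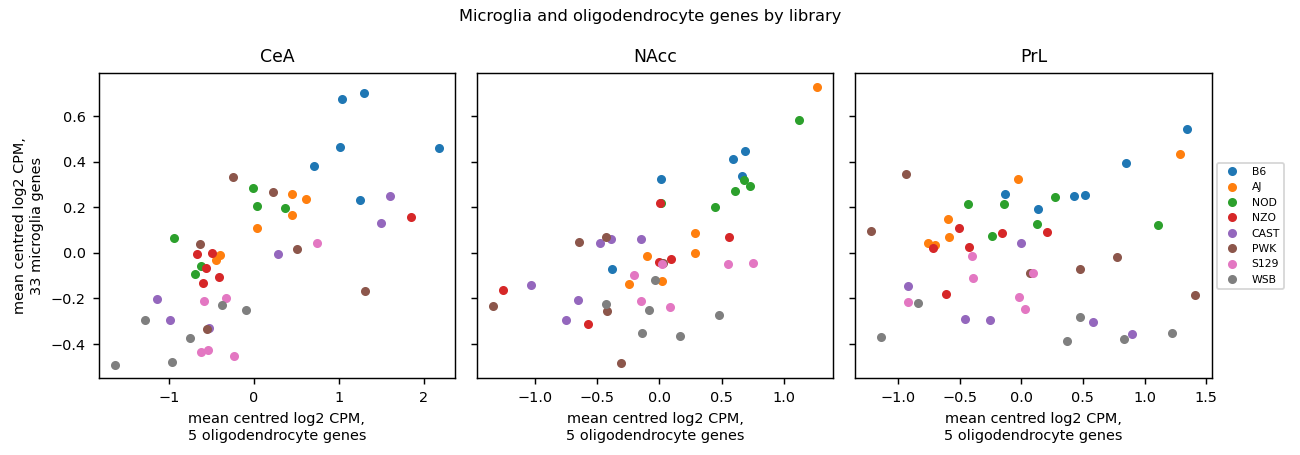
Mean centred log2 CPM of the 33 microglia genes against that of 5 oligodendrocyte genes, each point 1 library and each colour 1 strain, in panels for CeA, NAcc and PrL. B6 libraries lie at the upper right in CeA, and the points of PrL show no common trend.

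Other genes of microglial pathways, from lists drawn up with earlier results known, are given by their counts. Of 20 further microglia genes tested, 13 were higher and 0 lower in B6 in CeA, 8 and 2 in NAcc, and 9 and 2 in PrL. In PWK 11 were higher and 1 lower in CeA, 7 and 4 in NAcc, and 11 and 2 in PrL, and 16 were lower in CeA and 16 in PrL than in NAcc. Cst3 and Sparc, both also made by astrocytes, were the most abundant, and Rgs10 (-1.90) and Sparc (-1.79) differed most between PrL and NAcc. Of 14 genes of ITAM signalling, 9 were higher and 0 lower in B6 in CeA, 1 and 0 in NAcc, and 3 and 1 in PrL. In PWK 9 were higher in CeA, 4 in NAcc and 7 in PrL, with 0 lower. The shares of all genes are those given above for each comparison. The kinase Syk was 0.73 higher in PWK in CeA. Their most abundant genes were the phosphatase Inpp5d and the adaptor Blnk, and Blnk differed most between regions, by 2.62 in PrL over NAcc. Of 18 regulators and ligands, 4 were higher and 5 lower in B6 in CeA, 2 and 1 in NAcc, and 0 and 3 in PrL. In PWK 5 were higher and 6 lower in CeA, 2 and 5 in NAcc, and 5 and 5 in PrL. These included Cx3cl1 and Sirpa as the most abundant, Mef2c, which was 2.59 higher in PrL than in NAcc, and the transcription factor Irf5, which was 0.84 higher in PWK in CeA. Of 20 genes of activated microglia only 10 were tested, and 7 of these were higher in B6 in CeA, 1 in NAcc and 3 in PrL, where 1 was lower. In PWK 2 were higher and 0 lower in CeA, 3 and 2 in NAcc, and 3 and 1 in PrL. The cathepsins Ctsb and Ctsd were the most abundant, Spp1 was 1.52 higher in B6 in CeA and Lpl was 1.62 lower in PWK in NAcc (log2 difference -1.62).

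Markers of other cells also differed where the microglia genes did, and their part in the result was not tested. In CeA of B6 against Low_Average, 2 of 5 erythrocyte genes and 1 of 4 choroid plexus genes were higher, beside the markers given above. The border-associated macrophage genes summed in CeA of B6 to 21.1, 25.3 and 46.9 CPM (lowest, median and highest of 6). Of the 4 neuron genes tested, 2 were lower there (median -0.22), and of 4 oligodendrocyte precursor genes 1 was higher. Between regions, all 3 border-associated macrophage genes were higher in PrL than in NAcc (Mrc1 by 1.59 and F13a1 by 1.27), a direction opposite to that of most of the 33 genes.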

How the data were processed

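The submitters' notes name Trimmomatic, FastQC and STAR 2.7.3a. The authors aligned stranded poly(A) RNA-seq reads of all strains to GRCm39, the genome of the B6 strain, with at most 3 mismatches per 100 bases, and the effect of this on genes with strain variants was not tested. They deposited counts per gene and, after a filter, log2 CPM values of 14785 genes in all but 1 library from edgeR 3.38.1 and limma 3.52.2. Log2 CPM recomputed here from the deposited counts matched the deposited log2 values within 5e-06. Counts of these genes and libraries (tray 1, first run of tray 2, second run of tray 3) were fitted with limma 3.58.1 voom and TMM factors of edgeR 4.0.16 in R 4.3.3, per region with strain, sex and tray, and over 24 strain and region groups for regions and interactions. Contrasts were adjusted together by Benjamini-Hochberg over all genes at 0.05. The scripts were tested on simulated data. DESeq2 1.42.0, edgeR's quasi-likelihood test and other settings were alternatives. The mean level used a prior count of 1. The 33 genes and the lists were chosen with earlier results of these data known. Described in full were the 8 genes with the largest strain effect beyond the median of the set in all 3 regions, the 4 closest to that median, and the 3 largest called differences of each region contrast and direction. Outside the set, the 10 genes most alike and, from each list, the 2 most abundant and the 2 with the largest called difference were eligible, and 1 of the 10 is not reported here. Each mouse gave all 3 regions. Deviations of the mean of the 33 genes correlated at 0.04, 0.09 and 0.32 between regions of a mouse, and the consensus correlation with mouse as a replicate block was 0.05.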

Additional observations from a re-analysis of the deposited data

Results flagged for a closer look

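A single library stood apart from its group, by Dixon's criterion, in 4 of 24 groups for the mean of the 33 genes and in 32 of 288 groups for 12 described genes. Chance alone sets apart about 1 in 20 groups. The libraries apart in the mean were a B6 NAcc library at -0.0702, with the others from 0.327 to 0.448, an AJ NAcc library at 0.729, with the next at 0.0892, a NOD NAcc library at 0.585, with the next at 0.321, and an NZO PrL library at -0.179, with the next at 0.023.

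In NAcc, the same AJ library stood apart for 9 of the 12 genes, at 279 CPM of Csf1r, 76.5 of Mpeg1, 60.8 of Sall1, 47.3 of Tmem119, 40.5 of Selplg, 40.2 of C1qc, 31.5 of Unc93b1, 27.4 of Cyth4 and 18.8 of Olfml3. A NOD library was high at 47.6 CPM of C1qc, 29.7 of Unc93b1 and 29.2 of Cyth4. A B6 library was low at 103 CPM of Csf1r and 12.4 of Unc93b1, a CAST library at 10.4 of P2ry13 and an NZO library at 26.6 of Sall1.

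In CeA, libraries were high at 22.7 CPM of Olfml3 in NOD, 9.98 of Mpeg1 and 35.9 of C1qc in S129, and 38.8 of Mpeg1 and 45.6 of Sall1 in NZO, and low at 8.18 of Cyth4 in WSB. In PrL, they were high at 5.92 CPM of Fcrls in PWK, 22.3 of Unc93b1 and 137 of Csf1r in B6, 14.3 of Cyth4, 0.989 of C3ar1 and 131 of Csf1r in CAST, 35.2 of C1qc in NOD, 74.7 of Sall1 in AJ, and 37.1 of Sall1 and 29.4 of Tmem119 in NZO.

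Strain effects that differed between regions by the interaction contrasts of limma-voom were 0.595 for Ctss (B6, CeA minus NAcc), -0.503 for Fcrls (B6, PrL minus NAcc), -0.434 for Olfml3 and -1.04 for Fcrls (CAST, PrL minus NAcc), 0.779 for C3ar1 (B6, CeA minus PrL), and 0.406 for Olfml3 and 0.687 for Fcrls (CAST, CeA minus PrL), on the log2 scale.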

How the results depend on the processing

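Of 592 calls on single genes, 575 were kept by edgeR, 585 by DESeq2, 591 with RLE size factors, 552 without the count filter, 562 without the tray term, 578 with 144 libraries, 554 with the other sequencing runs, 579 with quality weights and 583 without the 4 libraries apart, and none reversed. With the oligodendrocyte term, chosen after seeing the data, 471 were kept, 107 were weaker and 14 reversed in sign. The cause was not tested. That term gave 14 higher in B6 in CeA (median 0.226), 6 lower in B6 and 14 higher in PWK in NAcc, 2 higher and 7 lower for CeA against NAcc, 3 lower for PrL against NAcc, 2 higher and 7 lower for CeA against PrL, and 3 genes with an interaction. Reversed with it were the B6 differences in CeA of Sall1 (-0.089 against Low_Average, -0.102 against the other 7) and Unc93b1 (-0.0586), and the CAST median in NAcc (0.00453). For PrL against NAcc C1qc (0.012), Trem2 (0.0665), Tmem119 (0.0385), Itgb5 (0.137), Fcer1g (0.0113), Olfml3 (0.0501), Sall1 (0.0584), Mpeg1 (0.0543) and Unc93b1 (0.108) reversed, and for CeA against PrL Ctss (-0.00257) and Itgb5 (-0.0391). Some of these values lay close to 0, and a reversed sign is not by itself a call in the other direction. The region and interaction fit used 1 slope of the term for all regions. The S129 median in CeA was 0.00978 within tray 1. Interaction F calls were 8 by DESeq2, 3 with 144 libraries, 10 with the other runs, 27 with quality weights, 9 with mouse as a replicate block and 15 without the 4 libraries. The block changed no other count by over 1.5 times. With the other runs, B6 had 2 and PWK 5 lower in PrL, 2 were higher in CeA and 1 in PrL than in NAcc, and DESeq2 also gave 2 for CeA. Quality weights gave 8 higher in PWK in NAcc. Without the 4 libraries, 1 was lower in B6 in NAcc. Leaving out each B6 NAcc library gave 1 to 4 lower, 10 to 17 higher and medians of 0.118 to 0.293. The PrL mean of WSB was -0.219 as a median over genes. C3ar1 was at few counts in some libraries and is imprecise, but other genes had larger SEs in some regions. For B6 against Low_Average the SE in CeA was 0.46 for Ptprc and 0.21 for C3ar1. In PrL it was 0.18 for Sall1 and 0.12 for C3ar1. Counts cover sampling error only.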
